A study of Rattus norvegicus with 6 samples.

Results

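Programmed cell death in the rat vestibular epithelium was examined through 34 genes of apoptosis and necroptosis, taken as the rows of the count table that carry a fixed list of gene symbols. Of the 34, 31 had a row among the 32883 genes of the table, and the expression of Mcl1, Bbc3 and Hrk was not analysed here. RNA came from Long-Evans rats injected subcutaneously once a day for 6 weeks from postnatal day 21, either with phosphate-buffered saline (Control, n = 3) or with the aminoglycoside antibiotic streptomycin at 500 mg/kg in that saline (STREP, n = 3). Each group held 2 males and 1 female, and the utricles and cristae of both ears were pooled for each animal, so each library is an average over hair cells (HCs), supporting cells and all other cells of the dissected tissue. A lower number of cells of a type and less RNA in each of those cells cannot be told apart in such libraries.

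Apoptosis runs along 2 connected routes. In the mitochondrial route, the BH3-only proteins sense damage and either block the pro-survival BCL2 proteins or switch on the pore-forming effectors BAX and BAK. The pore releases cytochrome c, which assembles APAF1 and caspase-9 into the apoptosome and so starts the caspase cascade. In the receptor route, FAS and other death receptors recruit FADD and caspase-8. Necroptosis is a lytic death that is carried by the kinases RIPK1 and RIPK3 and the membrane pore MLKL when caspase-8 is not active. Aminoglycosides at acute doses are a classic trigger of HC apoptosis, whereas the study asked which transcripts change under a slower exposure in which HCs are often extruded. These routes are largely switched by cleavage, binding and phosphorylation of proteins already made, and the libraries measure transcripts only.

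All 6 libraries were deeply read, with totals from 48568191 to 59906048 counts in Control and from 29333584 to 33744909 in STREP animals, so depth was lower in every STREP library. The labels place the libraries in a single batch. The 10 HC markers were present in both groups, with summed levels of 82176 to 86929 normalised counts in Control and 71217 to 85313 in STREP animals. Their median log2 fold change was -0.19. Myo7a (-0.49, DESeq2 adjusted p = 0.0162) and Lhfpl5 (-0.45, DESeq2 adjusted p = 0.0161) fell within 1.5-fold, and Gfi1 was called higher (DESeq2 adjusted p = 2.37e-06). Tmc1 (-0.40, DESeq2 adjusted p = 0.256) and Slc17a8 (-0.30, DESeq2 adjusted p = 0.225) lay lower without overlap, and Calb2 (0.42, DESeq2 adjusted p = 0.13) higher. Myo6, Pou4f3, Otof and Espn overlapped between groups. Of 10 supporting cell markers, 2 were called higher, Sox10 and Fgfr3. The lowest raw count of any of the 31 genes in any library was 36, so all could be tested.

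None of the 31 genes was called in STREP animals. A gene was called when its DESeq2 adjusted p-value was under 0.05 and it changed by more than 1.5-fold, and 3.24% of the 16250 genes tested met that rule. Without the fold change condition the count of members was also 0, against 3.72% of all genes, and the lowest DESeq2 adjusted p-value of a member was 0.175 (Casp12). At an unadjusted p-value under 0.05 there were 3 members of 31 (Bcl2l11, Bmf and Casp12), where 12.2% of all genes passed. The edgeR quasi-likelihood test called 0 members against 1.77% of 14928 genes and gave 2 (Bcl2l11 and Casp12) at an unadjusted p-value under 0.05, against 11.6%. The 3 STREP values lay entirely outside the 3 Control values for 5 members, and 17.8% of all genes had such a separation. The median log2 fold change of the members was 0.09, with 18 above 0 and 13 below, and over all genes whose normalised counts averaged 10 or more it was 0.01.

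**Figure D1:**
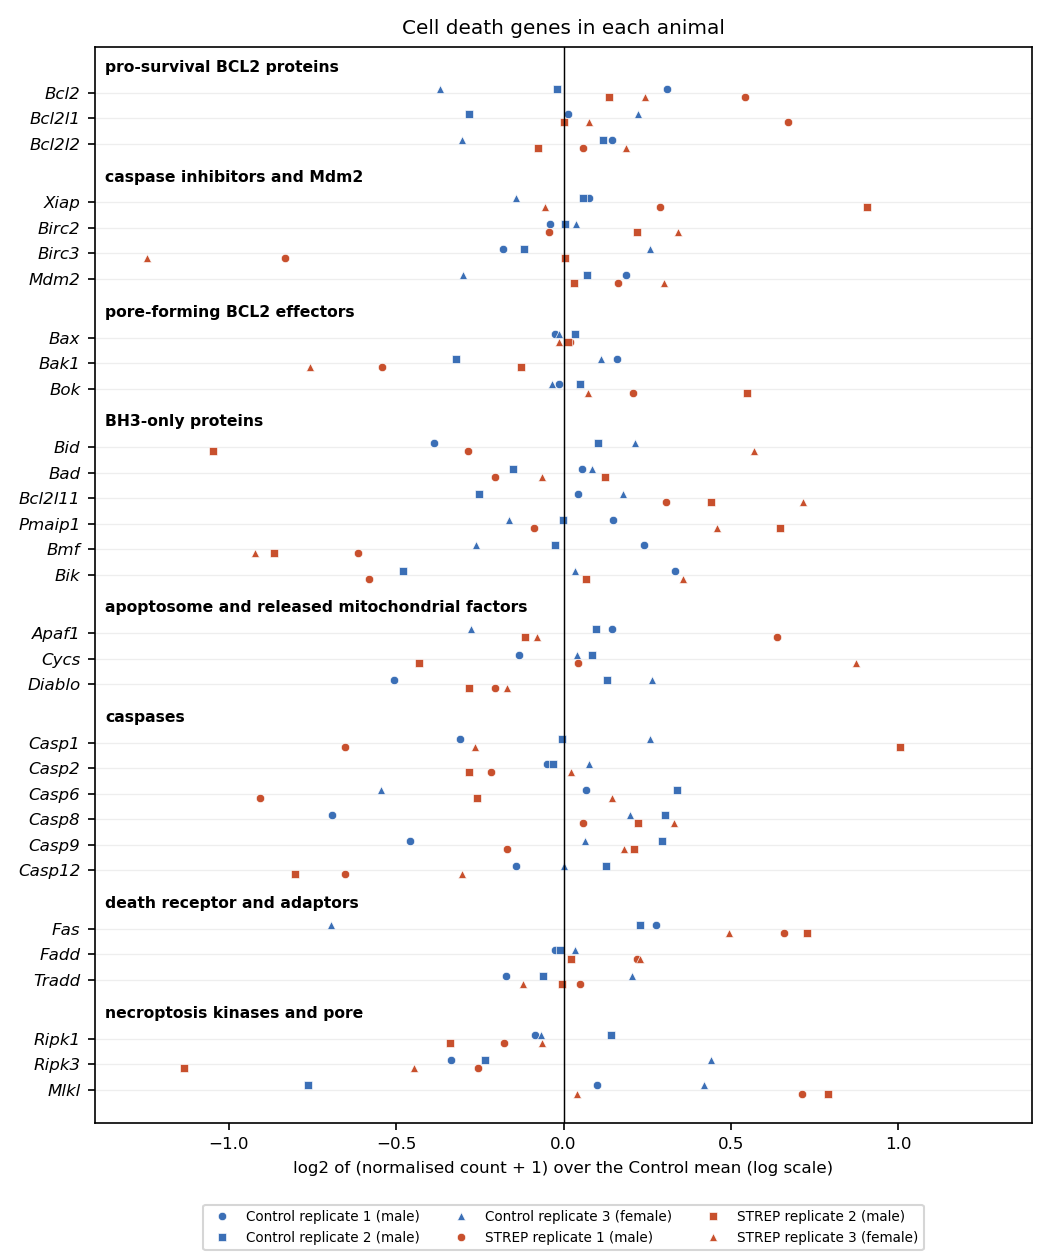
Each point is 1 animal's level of 1 gene, as log2 of its normalised count + 1 over the Control mean (x axis, log scale), for 31 genes grouped by role (y axis); blue marks Control and red STREP, circles and squares are males and triangles females. The blue and red points intermingle for 26 genes, and they separate for Bok, Bcl2l11, Fas, Bmf and Casp12.

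How large a change the data leave room for differed between genes. The 95% interval of the log2 fold change, which is the Wald interval before any adjustment for many genes, lay within 1.5-fold (0.58 on the log2 scale) in both directions for 10 members and within 2-fold for 21. The 10 were Bcl2l2, Birc2, Mdm2, Bax, Bad, Casp2, Casp9, Fadd, Tradd and Ripk1. For 14 members the interval reached beyond 1.5-fold higher and for 10 beyond 1.5-fold lower, so changes of that size are not excluded for them. The standard error of a member's log2 fold change ran from 0.15 to 0.51 with a median of 0.26, and the median over all genes tested was 0.24.

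**Figure D2:**
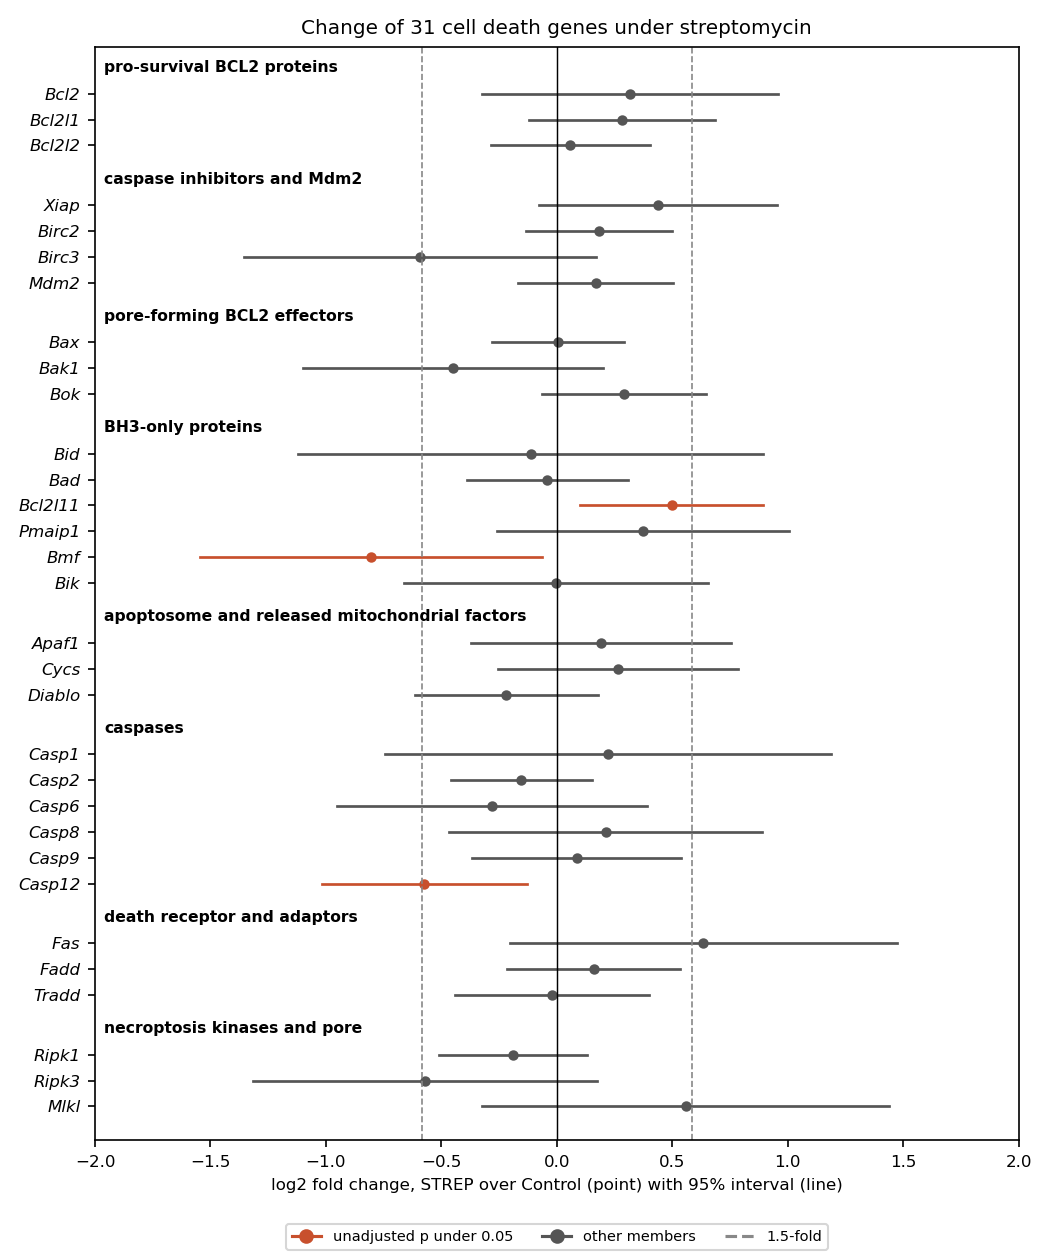
Points give the log2 fold change of STREP over Control (x axis) and lines its 95% interval for each of 31 genes grouped by role (y axis); dashed lines mark 1.5-fold, and red marks the 3 genes with an unadjusted p-value under 0.05. The interval leaves out 0 for Bcl2l11, Bmf and Casp12, and 10 of the intervals stay between the dashed lines.

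The pro-survival BCL2 proteins, which bind and hold the pore-forming and BH3-only proteins, had 0 of 3 measured members called and a median log2 fold change of 0.28. Bcl2 stood at 176, 139 and 109 normalised counts in the Control animals and 206, 155 and 168 in the STREP animals. Its groups overlapped, and the log2 fold change was 0.32 ± 0.33 (SE, DESeq2 adjusted p = 0.828). Bcl2l1, which encodes BCL-XL, had 5197, 4233 and 6005 normalised counts in Control and 8189, 5148 and 5423 in STREP animals. STREP replicate 1 was the highest of the 6 animals and the other STREP values lay inside the Control range (0.28 ± 0.21, DESeq2 adjusted p = 0.689). Without that animal the log2 fold change was 0.04. Bcl2l2, encoding BCL-W, was close to level, with a log2 fold change of 0.06 and an interval from -0.29 to 0.40.

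The caspase inhibitors and Mdm2 had 0 of 4 members called and a median of 0.17. Xiap, which encodes a direct inhibitor of caspases, had 516, 510.1 and 444 normalised counts in Control and 599, 919 and 471 in STREP animals. The log2 fold change of 0.44 leaned on STREP replicate 2, without which it was 0.13. Birc2 and Birc3 encode the cellular inhibitors that hold RIPK1 in its survival state, and they lie next to each other among the protein-coding genes of the rat GRCr8 assembly. The estimates of the pair had opposite signs, with log2 fold changes of 0.18 ± 0.16 for Birc2 and -0.59 ± 0.39 for Birc3 (DESeq2 adjusted p = 0.782 and 0.615). The difference between the pair was not tested. Birc3 was at 108 and 80.8 normalised counts in STREP replicates 1 and 3, below the Control range of 170.0 to 230.5, but at 193 in STREP replicate 2. Mdm2, which encodes the p53 ubiquitin ligase and is itself a p53 target, had 2616, 2414 and 1867 normalised counts in Control and 2574, 2348 and 2829 in STREP animals, and the groups overlapped (0.17 ± 0.17, DESeq2 adjusted p = 0.826).

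Bax was the steadiest gene of the list. It was measured at 1021, 1064 and 1029 normalised counts in Control and 1052, 1047 and 1029 in STREP animals. The means of 1038 ± 22.9 and 1043 ± 12.0 (SD, n = 3) gave a log2 fold change of 0.01 with an interval from -0.28 to 0.29. Bak1, the other main pore-forming gene, had 204, 146 and 198 normalised counts in Control and 125, 167 and 108 in STREP animals. STREP replicates 1 and 3 were the lowest of all 6 animals, STREP replicate 2 lay within the Control range, and the log2 fold change was -0.45 ± 0.33 (DESeq2 adjusted p = 0.690). Bok, a BAX relative found largely at the endoplasmic reticulum (ER), had 887, 927 and 875 normalised counts in Control and 1034, 1311 and 944 in STREP animals. Its groups did not overlap, but the log2 fold change of 0.29 ± 0.18 did not pass the test (DESeq2 adjusted p = 0.573) and was 0.14 without STREP replicate 2.

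The log2 ratio of Bax to Bcl2 within an animal, often used to describe the balance of death and survival genes, was computed after the single genes had been seen. Control animals had a ratio of 2.90 ± 0.35 and STREP animals one of 2.57 ± 0.20 (SD, n = 3), and the groups overlapped. It compares counts of genes of different length, so only the difference between groups can be read. Of 6 such ratios computed, 2 did not overlap between groups, where 17.8% of all single genes tested had no overlap. Bak1 to Bcl2l1 lay from -4.92 to -4.67 in Control and from -6.03 to -4.94 in STREP animals (difference -0.73). Mlkl to Ripk3, a ratio of necroptosis genes, lay from -1.76 to -0.78 in Control and from -0.73 to 0.73 in STREP animals (difference 1.18). For both the two-sided exact permutation test gave p = 0.1 (0.3 after Benjamini-Hochberg adjustment over the 6), the smallest p that 3 animals against 3 allow. The ratios of Bax to Bcl2l1, Bcl2l11 to Bcl2l1 and Ripk3 to Ripk1 differed by -0.26, 0.23 and -0.38 and overlapped.

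The BH3-only genes held both the largest decrease in fold change and 1 of the 3 increases without overlap, with 0 of 6 called and a median of -0.02. Promoter sequences are shown for Bcl2l11 and Bmf, and for the caspase gene Casp12, because they are the members with an unadjusted p-value under 0.05. Each window runs from 250 bases before to 50 after the annotated start of the gene in RefSeq on GRCr8, 5′ to 3′ along the gene. Capitals mark the FOXO element GTAAACA or its reverse complement, searched because FOXO factors are known activators of Bcl2l11.

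Bcl2l11 promoter, chr3:135819792-135820091, plus strand: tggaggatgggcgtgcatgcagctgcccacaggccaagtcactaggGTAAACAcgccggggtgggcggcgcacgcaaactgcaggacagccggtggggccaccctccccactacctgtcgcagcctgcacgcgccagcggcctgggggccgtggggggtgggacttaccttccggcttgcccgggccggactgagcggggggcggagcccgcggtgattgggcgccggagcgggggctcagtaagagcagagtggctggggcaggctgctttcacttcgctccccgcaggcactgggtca

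Casp12 promoter, chr8:10926938-10927237, plus strand: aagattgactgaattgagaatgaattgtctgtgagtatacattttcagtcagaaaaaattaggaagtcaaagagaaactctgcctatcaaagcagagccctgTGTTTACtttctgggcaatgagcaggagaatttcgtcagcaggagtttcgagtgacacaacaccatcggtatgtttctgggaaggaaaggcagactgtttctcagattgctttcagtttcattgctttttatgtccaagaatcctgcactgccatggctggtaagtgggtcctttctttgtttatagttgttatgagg

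Bmf promoter, chr3:125974015-125974314, minus strand: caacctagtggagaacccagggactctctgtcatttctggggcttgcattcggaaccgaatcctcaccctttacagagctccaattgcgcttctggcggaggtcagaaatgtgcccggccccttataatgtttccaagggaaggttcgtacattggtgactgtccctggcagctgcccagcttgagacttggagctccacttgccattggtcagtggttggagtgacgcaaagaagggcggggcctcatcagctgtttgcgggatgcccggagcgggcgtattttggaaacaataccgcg

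The FOXO element began 204 bases before the start of Bcl2l11 and 148 bases before that of Casp12, and the Bmf window held none. Among members it also occurred in the windows of Bad and Mdm2. The 26 members with a promoter window had 29 windows, of which 4 held it, and 3.78% of all 33469 windows held it. This search, like that for the AP-1 element TGANTCA (4 of 29 member windows, 7.33% of all windows), was added after the values were seen. The ATF4 composite element TGATGNAA occurred in windows of Bcl2, Bcl2l1 and Hrk, the last without expression values here. It was in 5 of the 29 member windows, against 3.98% of all windows. Of the 4 windows of Bcl2l1, 3 held it, and overlapping windows shared 1 of the sites. The E-box CACGTG and the p53 element were found in 0 of the 29, against 6.42% and 0.0598% of all windows. The median GC content was 59% in member windows and 51.7% in all windows, and the shares were not adjusted for this. Both strands were searched, and a match describes letters only.

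Bcl2l11 encodes BIM, which can bind every pro-survival BCL2 protein. It had 660.3, 537 and 724 normalised counts in Control and 792, 869 and 1052 in STREP animals. All STREP values were above all Control values, with means of 641 ± 95 and 904 ± 133 (SD, n = 3), and the log2 fold change was 0.50 ± 0.20. It did not pass the adjusted test (unadjusted p = 0.014, DESeq2 adjusted p = 0.200). The estimate was 0.47 among males alone and 0.54 for the single pair of females.

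Bmf, which encodes a BH3-only protein that is held at the cytoskeleton until released, lay on the other side. It was at 145, 121 and 102 normalised counts in Control and 79.9, 66.9 and 64.3 in STREP animals. No values overlapped, and the log2 fold change of -0.81 ± 0.38 was the lowest of the list (unadjusted p = 0.033, DESeq2 adjusted p = 0.331). It ran from -0.92 to -0.67 when each animal was left out.

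The remaining BH3-only genes overlapped between groups. Pmaip1, encoding NOXA, had a log2 fold change of 0.37 ± 0.32 with 136 normalised counts in STREP replicate 1, 227 in replicate 2 and 199 in replicate 3, against 129 to 160.2 in Control. Bid, which links the receptor route to the mitochondrion after cleavage by caspase-8, spanned 38.9 to 121 normalised counts within the STREP group, wider than its Control range of 62.0 to 94.6. Bad had a log2 fold change of -0.04 ± 0.18, and Bik a mean of 255 normalised counts in both groups.

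**Figure D3:**
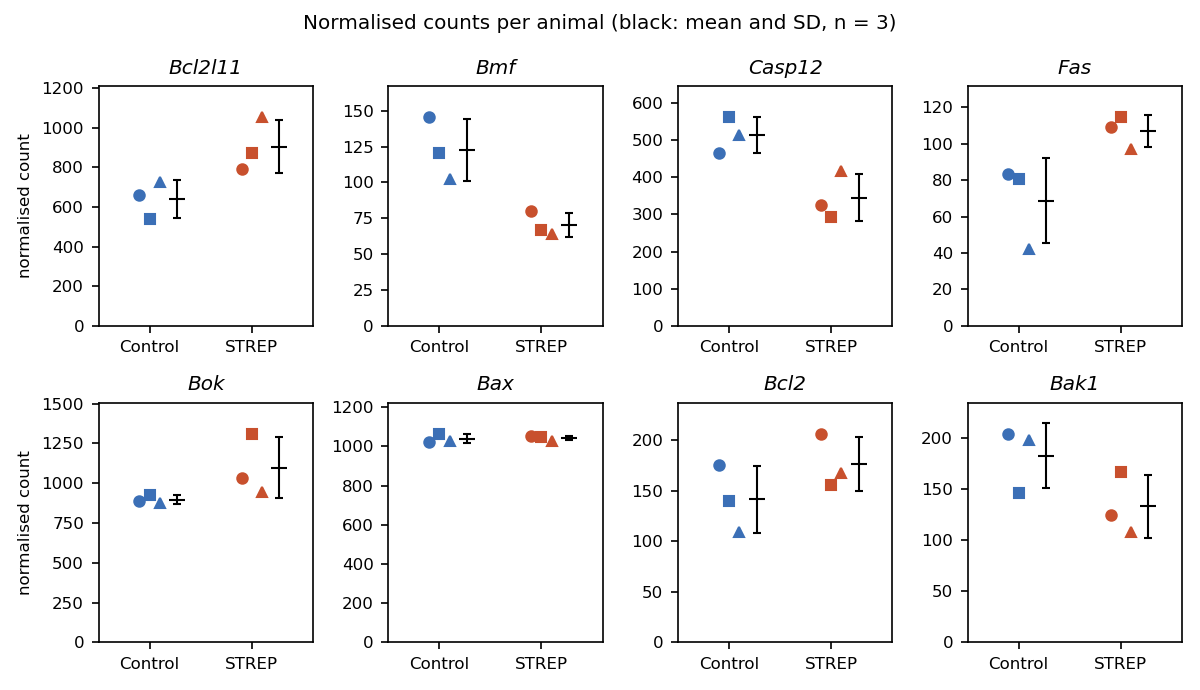
Normalised counts (y axis, from 0) are plotted for each Control (blue) and STREP (red) animal, with circles and squares for males, triangles for females, and the mean with SD in black, for 8 members. Bcl2l11, Fas and Bok are higher and Bmf and Casp12 lower in every STREP animal than in every Control animal, Bax is level and Bcl2 and Bak1 overlap.

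Of the genes that act once the mitochondrion has been opened, 0 of 3 were called, with a median of 0.19. Cycs, encoding cytochrome c, was at 3685, 4284 and 4153 normalised counts in Control and 4161, 2997 and 7412 in STREP animals. STREP replicate 3, the female, was the highest of all 6 animals and STREP replicate 2 the lowest, and without STREP replicate 3 the log2 fold change went from 0.27 to -0.17. Cytochrome c has many processed pseudogenes in mammals, so its count depends on how reads were divided among copies. Apaf1 (0.19 ± 0.29) and Diablo (-0.22 ± 0.20), which encodes a released antagonist of XIAP, also overlapped between groups.

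The caspases had 0 of 6 members called and a median of -0.03. Casp9, the initiator of the apoptosome, had 614, 1035 and 882 normalised counts in Control and 751, 976 and 957 in STREP animals, with a log2 fold change of 0.09 and an interval from -0.37 to 0.54. Casp8, the initiator of the receptor route, had 105, 210.0 and 195 in Control and 177, 199 and 214 in STREP animals (0.21 ± 0.35). In both genes Control replicate 1 was the lowest of all 6 animals. Casp2 (-0.15 ± 0.16) and Casp6 (-0.28 ± 0.34) overlapped as well.

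Casp12, a rodent caspase of the inflammatory family that sits at the ER, had the lowest p-value of the list. It was at 465, 561 and 513 normalised counts in Control and 326, 294 and 416 in STREP animals. Every STREP value lay below every Control value, with means of 513 ± 47.9 and 345 ± 63.3 (SD, n = 3) and a log2 fold change of -0.57 ± 0.23 (unadjusted p = 0.0112, DESeq2 adjusted p = 0.175). Without STREP replicate 3 it was -0.73 (DESeq2 adjusted p = 0.0506), the lowest adjusted value that any member reached in any alternative run. Casp1, the inflammatory caspase that cleaves interleukin-1 and lies with a single protein-coding gene between it and Casp12 in GRCr8, had 79.8, 98.6 and 119 normalised counts in Control and 62.6, 199.7 and 82.3 in STREP animals, the highest and the lowest of the 6 both being STREP animals.

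Among the markers of other cells, the 5 dark cell and transitional cell genes had a summed level of 46007 to 51489 normalised counts in Control and 31988 to 38877 in STREP animals, with no overlap, in the same direction as Casp12 and Bmf. Of the 5, 0 were called and 0 were at 0 in all libraries. Atp1b2 and Slc12a2 had the highest levels of the 5, with Control means of 22602 and 21842, and lay lower without overlap. Slc12a2 met the condition on adjusted p but stayed within 1.5-fold (-0.55, DESeq2 adjusted p = 0.0035). Atp1b2 did not meet that condition (-0.36, DESeq2 adjusted p = 0.182). Kcne1 (-0.79), Kcnq1 (-0.41) and Bsnd (0.05) overlapped between groups. The 6 neuron markers went both ways: their sum was lower without overlap, at 3269 to 3838 in Control and 3164 to 3241 in STREP animals, while their median log2 fold change was 0.25 and Tubb3 was called higher. The 6 Schwann cell markers had a median of -0.51 with 1 called lower (Prx, -0.68), and their summed levels overlapped, at 243677 to 338519 and 128287 to 271789. The 4 melanocyte markers measured also went both ways, with a median of -1.01 and 0 called. Tyr, Tyrp1 and Mlana had estimates below 0, while Pmel, the most abundant, was at 0.29. Their sums overlapped, at 25276 to 26079 in Control and 25708 to 38349 in STREP animals. The part of these lists in the values of Casp12 and Bmf was not tested. The 9 macrophage markers measured, which mark cells known to express Casp1, Ripk3 and Mlkl, summed to 3625 to 5119 in Control and 4583 to 5514 in STREP animals, overlapping, with 0 called and 0 at 0 in all libraries. Their median was 0.28. C1qa (0.45, DESeq2 adjusted p = 0.394) and C1qb (0.47, DESeq2 adjusted p = 0.274) lay higher without overlap, while Ptprc and Cx3cr1 had estimates below 0.

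In the receptor route 0 of 3 genes were called, with a median of 0.16. Fas, the death receptor and a p53 target, had the highest log2 fold change of the list, at 0.63 ± 0.43. It was at 83.5, 80.8 and 42.1 normalised counts in Control and 109, 114 and 97.2 in STREP animals. The groups did not overlap, but Control replicate 3 lay well below the other Control animals and the interval ran from -0.20 to 1.47 (DESeq2 adjusted p = 0.633). The adaptors Fadd, at 0.16 ± 0.19, and Tradd, at -0.02 ± 0.21, overlapped.

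The necroptosis genes were not called either, 0 of 3, with a median of -0.19. Ripk1, which decides between survival and death downstream of tumour necrosis factor receptors, had 1210.2, 1419 and 1226 normalised counts in Control and 1136, 1015 and 1228 in STREP animals (-0.19 ± 0.16, DESeq2 adjusted p = 0.760). Ripk3, whose product phosphorylates MLKL, had 147, 158 and 253 in Control and 156, 84.2 and 136 in STREP animals (-0.57 ± 0.38, DESeq2 adjusted p = 0.620). Mlkl had 85.9, 46.8 and 108 in Control and 132, 139 and 82.3 in STREP animals (0.56 ± 0.45, DESeq2 adjusted p = 0.733). The ratio of Mlkl to Ripk3 within an animal did not overlap between groups, with Control up to -0.78 and STREP from -0.73. Its exact permutation p was 0.1, the smallest possible. Kinase and pore had estimates of opposite sign, and within each gene the groups overlapped. Single animals carried much of both estimates, which were -0.29 for Ripk3 without Control replicate 3 (-0.35 without STREP replicate 2) and 0.29 for Mlkl without Control replicate 2.

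The spread between animals of a group was uneven over the list. The pooled SD of log2 normalised counts within groups was 0.65 for Casp1, 0.61 for Bid and 0.52 for Mlkl, and it was 0.03 for Bax and 0.08 for Fadd. In order of replicate, Control animals held the highest value of the 6 for 2, 5 and 5 members and STREP animals for 3, 7 and 9. Control animals held the lowest for 6, 3 and 8 members and STREP animals for 5, 6 and 3. A term for a different change in females and males, fitted over all genes, passed at an adjusted p under 0.05 for 0 members (lowest DESeq2 adjusted p = 0.345) and for 0.259% of 13134 genes. Each group held 1 female, so that term rests on a single pair of animals.

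Around the members, 77 other genes of the same pathways are reported, of which 70 were tested, and 5 were called higher and 0 lower, where 1.87% of all genes were called higher. The list of ATF4-CHOP stress genes held 4 of the 5 and was written with their rise in these libraries already known. The count of 5 therefore cannot be read as an excess over the share of all genes.

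The list of ATF4-CHOP stress genes and that of FOXO and JNK pathway genes held these 5 calls. Of 9 genes of the ATF4-CHOP arm, 4 were called higher, namely Atf4 (0.79 ± 0.17), Atf3 (1.56 ± 0.32), Chac1 (2.26 ± 0.20) and Trib3 (0.98 ± 0.26), the last with a DESeq2 adjusted p of 0.00758 that was lost with edgeR (adjusted p = 0.0772) and without Control replicate 2, Control replicate 3 or STREP replicate 1 (adjusted p = 0.0756, 0.058 and 0.122), with library totals (0.0616) and among males alone (0.111). With the Wald test set against 1.5-fold, Chac1 kept its call and Atf4 (adjusted p = 1), Atf3 (0.317) and Trib3 (1) did not. These genes were put on the list with their rise in these libraries already known. Ddit3, which encodes CHOP, had 1755, 1438 and 1787 normalised counts in Control and 1928, 2591 and 1948 in STREP animals, without overlap, and was not called (0.38 ± 0.18, DESeq2 adjusted p = 0.343). Of 10 FOXO and JNK pathway genes, 1 was called, Foxo1, a transcription factor of the FOXO family, which rose from 469, 165 and 471 to 1024, 1032 and 718 normalised counts (1.33 ± 0.35, DESeq2 adjusted p = 0.00586). Its adjusted p was 0.105 with edgeR, 0.0898 without STREP replicate 1, 0.0691 without STREP replicate 2 and 1 with the Wald test set against 1.5-fold. Foxo3, named after its values were seen, was at 0.63 ± 0.22 on the log2 scale (DESeq2 adjusted p = 0.0834), without overlap. Named likewise, Map3k5 (1.06 ± 0.37, DESeq2 adjusted p = 0.0839), Mapk9 (0.54 ± 0.21, DESeq2 adjusted p = 0.161) and Foxo4 (1.19 ± 0.92, DESeq2 adjusted p = 0.71) also lay higher without overlap. Foxo4 had few counts, at 14.7, 3.4 and 11.2 normalised counts in Control and 29.3, 17.3 and 20.9 in STREP animals. Mapk8 lay lower without overlap (-0.65 ± 0.42, DESeq2 adjusted p = 0.611). Jun, Fos, Mapk10 and Map3k12 overlapped between groups, and 17.8% of all genes tested had no overlap.

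The lists of p53 targets, death ligands and receptors, other necroptosis and pyroptosis genes and other BCL2 family genes had 0 genes called. Among 17 p53 targets outside the members, Cdkn1a, the classic one, had 151, 73.1 and 197 normalised counts in Control and 193, 126 and 83.8 in STREP animals (-0.06 ± 0.46, DESeq2 adjusted p = 0.989). Gadd45a met the condition on adjusted p but stayed within 1.5-fold, with 3269, 3629 and 2851 normalised counts in Control and 2339, 1919.7 and 2344 in STREP animals (-0.56 ± 0.16, DESeq2 adjusted p = 0.0152); it is named after its values were seen. Sesn2 (0.52, DESeq2 adjusted p = 0.0549), Ccng1 (0.33, DESeq2 adjusted p = 0.291) and Gdf15 (1.49 ± 0.88, DESeq2 adjusted p = 0.530), named likewise, lay higher without overlap. Gdf15 had few counts, at 20.9, 1.7 and 18.9 normalised counts in Control and 33.3, 49.7 and 34.4 in STREP animals. In Control replicate 2 it was below the 2.55 normalised counts that 3 counts come to. Gadd45a, Zmat3 (-0.82, DESeq2 adjusted p = 0.45) and Plk2 (-0.33, DESeq2 adjusted p = 0.388), the last 2 also named likewise, lay lower without overlap. The median of the 17 was 0.23, and 17.8% of all genes tested had no overlap between groups. Of the apoptosis execution genes reported here, which had a median of -0.09, Endog (-0.49, DESeq2 adjusted p = 0.153) and Dffa (-0.42, DESeq2 adjusted p = 0.339) lay lower without overlap. The 11 death ligands and receptors with a row, the 11 other necroptosis and pyroptosis genes and the 7 other BCL2 family genes had medians of -0.14, -0.18 and -0.06 on the log2 scale. These medians cover genes whose normalised counts averaged 10 or more. Tnfrsf12a, a death receptor list gene named after its values were seen, lay higher without overlap (0.60 ± 0.21, DESeq2 adjusted p = 0.0899). Tnf had 0 counts in all 6 libraries, where 3 counts, taken as the floor, come to between 0.0501 and 0.102 CPM; such floors cover counting error only.

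**Figure D4:**
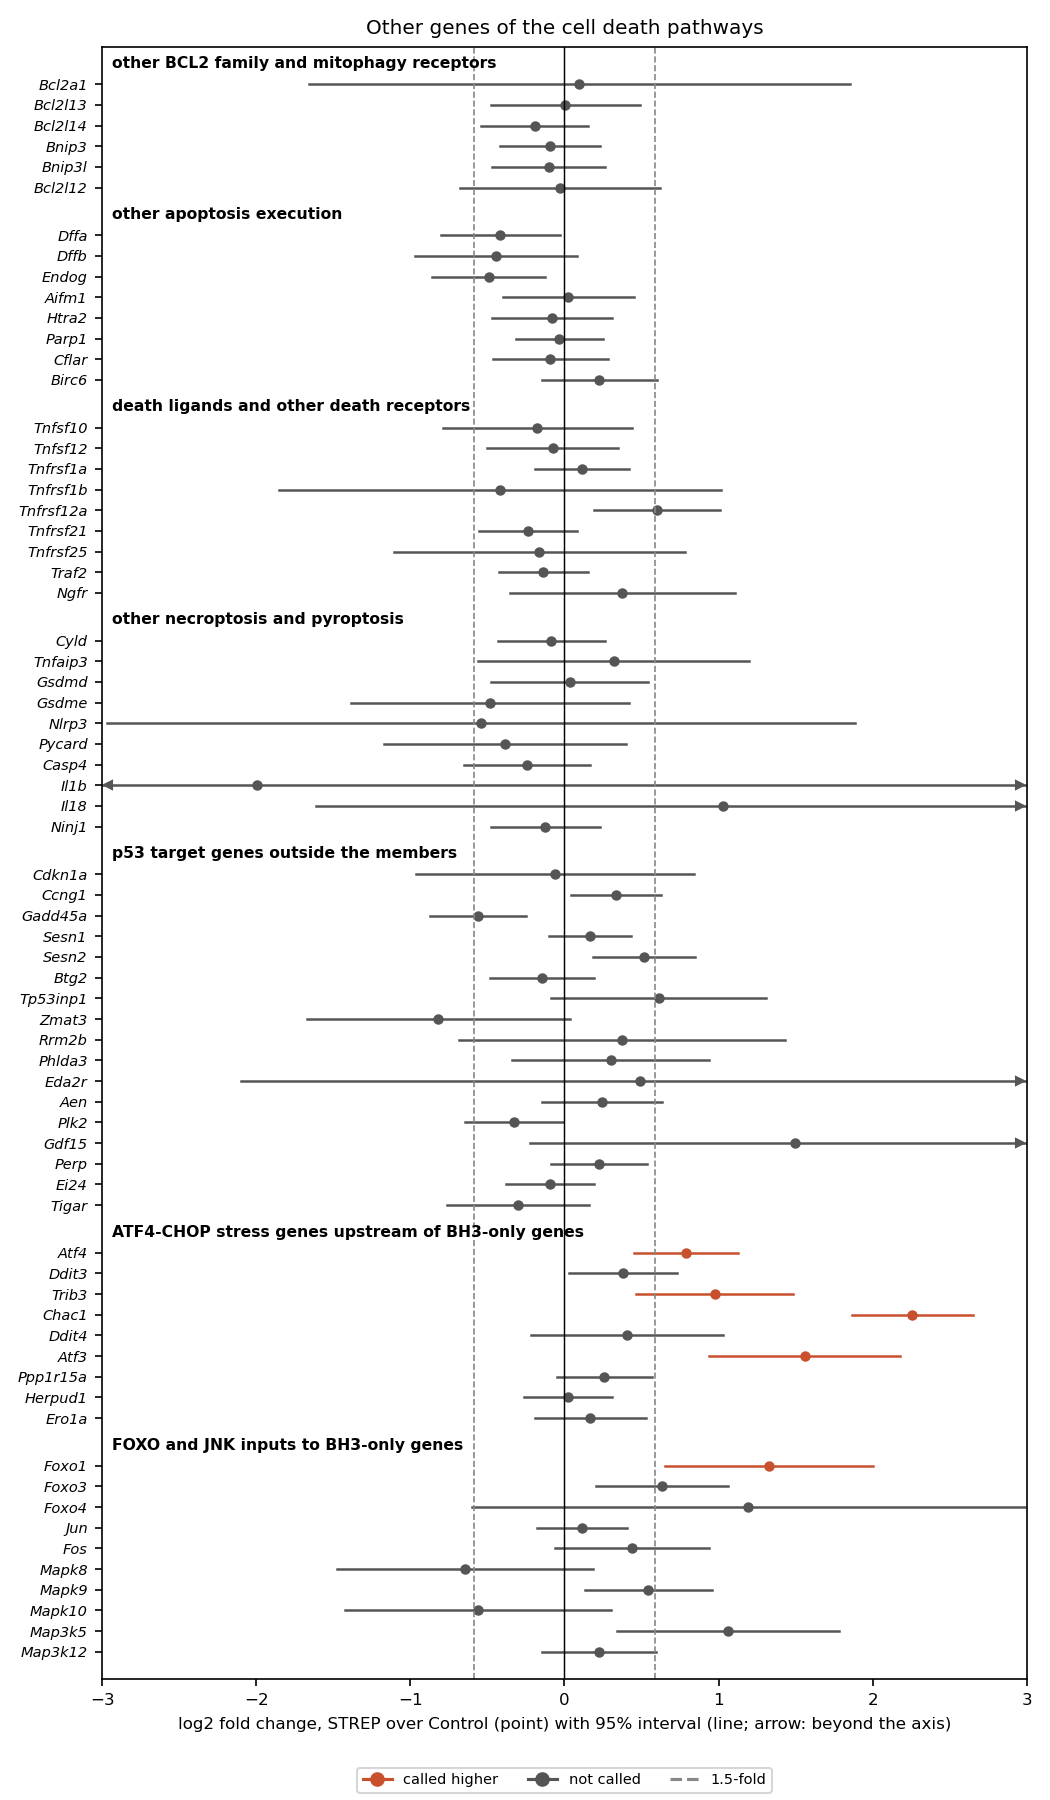
Points give the log2 fold change of STREP over Control (x axis) and lines its 95% interval, cut with an arrow at the edge of the axis, for 69 listed pathway genes whose normalised counts averaged 10 or more, grouped by list (y axis); red marks genes that were called and dashed lines 1.5-fold. The 5 red genes are Atf4, Trib3, Chac1, Atf3 and Foxo1, and all lie to the right of 0.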

How the data were processed

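RNA from the vestibular epithelium of 3 Control and 3 STREP rats was converted to cDNA with oligo-dT primers, amplified and sequenced. Per the labels, STAR 2.5.3a aligned the reads and RSEM 1.3.0 quantified them, and the methods give Rnor6.0 with the matching Ensembl annotation. The authors deposited 1 table of expected counts per gene, unscaled. Values that were not whole numbered 0, so rounding changed nothing. RSEM splits reads that match several genes, which leaves genes with close copies, such as Birc2, Birc3 and Cycs, uncertain.

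Groups and sexes came from the labels, and replicates were numbered in order of deposition. The titles of STREP replicates 1 and 2 share a code whose meaning is not given.

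Counts of all genes were fitted in R 4.3.3 with DESeq2 1.42.0 (median-of-ratios size factors, group as factor, Wald tests, independent filtering at 0.05, Benjamini-Hochberg adjustment over all genes). Normalised counts are counts divided by size factors. Genes called had an adjusted p under 0.05 and over 1.5-fold change. edgeR 4.0.16 was the alternative tool. Other alternatives were size factors, filters, sex as a covariate, males alone, thinning and omission of each animal. The procedure was checked on simulated counts.

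The members and gene lists were chosen with earlier results of these data known. All members are named. Values per animal are given for those with an unadjusted p under 0.05 and those that define a role. Outside that rule they are given for Xiap, Bok, Cycs and Casp1, and for Birc3 and Pmaip1 in STREP animals only. Pathway genes are named where called, with Cdkn1a and Ddit3 whatever their value. Other pathway genes were named after their values were seen. Some pathway genes are not reported here and are left out of the counts of listed genes. Among 151 listed pathway and marker genes, 145 had a row, 2 under another symbol. Promoter windows came from RefSeq (GRCr8), and 26 of the 34 members had one. Protein sequences were not used here.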

Additional observations from a re-analysis of the deposited data

How the results depend on the processing

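The count of members called was 0 in each of the 17 alternatives run. The number of all genes called was 264 and 295 with edgeR with and without a count filter, 309 with library totals as size factors and 82 when the Wald test itself was set against 1.5-fold, against 527, and 424 to 517 with each animal left out. The median log2 fold change of the members was 0.012 among males alone and 0.024 to 0.15 with each animal left out. Of 31 members, 19 kept their sign in all alternatives and 20 with each animal left out. Among males alone the sign turned for Bcl2l2 (-0.14), Mdm2 (-0.033), Bad (0.012), Cycs (-0.16), Tradd (0.14) and, outside the members, Cdkn1a (0.51). It turned for Bax with library totals (-0.0036) and after thinning for Bik (0.020) and Tradd (0.024). With each animal left out, log2 fold changes ran from -0.072 to 0.13 for Bcl2l2, -0.0100 to 0.023 for Bax, -0.63 to 0.20 for Bid, -0.14 to 0.035 for Bad, -0.22 to 0.22 for Bik, -0.098 to 0.32 for Apaf1, -0.17 to 0.52 for Cycs, -0.45 to 0.52 for Casp1, -0.049 to 0.39 for Casp8, -0.10 to 0.26 for Casp9, -0.11 to 0.092 for Tradd and -0.41 to 0.26 for Cdkn1a. The cause was not tested. No paired analysis was possible because the labels give no replicate numbers that the groups share. With 3 animals a group, members with few counts had wide intervals.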
